A study of Mus musculus with 31 samples.

Results

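The hotspots described are those of male F1 hybrids between the mouse strains B6 and C3H, bred in both directions, set against the hotspots of each parent. B6fXC3Hm hybrids had a B6 (C57Bl/6J) mother and a C3H (C3H/HeJ) father, and C3HfXB6m hybrids had a C3H mother and a B6 father. The parental lists came from inbred B6 and inbred C3H. All autosomal hotspots of both hybrid lists were taken, 12850 in B6fXC3Hm and 17123 in C3HfXB6m, which together make 29973 of the 392225 autosomal hotspots in the 26 lists of the series. The B6 list held 18130 autosomal hotspots and the C3H list 13742. Sites bound by DMC1 were mapped in frozen testis by chromatin immunoprecipitation and single-stranded DNA sequencing (SSDS), with 1 library per genotype. The sources used here give neither the number nor the age of the animals behind a library. The other lists come from 4 further inbred strains, 17 further F1 crosses and a Prdm9-/- knockout.

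Meiotic recombination starts with programmed DNA double-strand breaks. In mice the histone methyltransferase PRDM9 binds DNA through an array of zinc fingers and marks the places where most breaks form. Alleles of Prdm9 that differ in the zinc fingers direct breaks to different places, and a hybrid carries the alleles of both parents. Broken ends are resected to single strands, on which the recombinase DMC1 assembles, and SSDS reads these strands.

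A hybrid hotspot was assigned to a parent when its centre lay under 400 bp from the centre of a hotspot in that parent's list. This gave 4 origins: B6 only, C3H only, both and neither. Each hotspot carries the authors' strength score, whose normalization the sources used here do not give. It was therefore compared within a list only, as a rank, as a percentile (100 the strongest) or as a share of the summed autosomal strength. With 1 library per genotype, no difference between lists has a replicate check. The 95% intervals are exact Clopper-Pearson intervals and cover counting error only. Read depth is unknown, so list lengths were not read as numbers of breaks.

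Both hybrid lists matched the parents on their labels. Among the strongest 10% of B6 hotspots, B6fXC3Hm held 99.1% and C3HfXB6m 99.6%, and among the strongest 10% of C3H hotspots both held 99.3%. Of the strongest 5000 B6 hotspots, B6fXC3Hm recovered 88.0% (87.1 to 88.9) and C3HfXB6m 96.2% (95.7 to 96.7), whereas the other 8 crosses with a B6 parent recovered between 30.8% (B6fX13Rm) and 71.0% (PWDfXB6m). Of the strongest 5000 C3H hotspots, B6fXC3Hm recovered 94.3% (93.6 to 94.9) and C3HfXB6m 98.0% (97.6 to 98.4), against 41.5% (C3HfXCASTm) to 81.7% (PWDfXC3Hm) in the other 4 crosses with a C3H parent. The lists hold no expression values, so the labelled tissue could not be checked against marker genes.

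Few hotspots had their centre in a promoter window of 250 bases, and 4 that did are shown so that the places can be read as sequence. How many centres windows of this size would hold anywhere was not computed. The low count was therefore not read as a property of the hotspots. Of 21263 promoters of protein-coding genes in the RefSeq table (GRCm38.p6), 31 held the centre of a hybrid hotspot within the 250 bases upstream of the transcription start, and 12 of these did so in both directions. Each sequence below is that window, 5′ to 3′ towards the gene, with the bases within 20 of the hotspot centre of B6fXC3Hm in capitals. Hpx, Lmo7 and Tgm4 have the strongest such hotspot of their origin among those held in both directions, and Prdm9 was added after its values were seen.
Hpx (hemopexin, a haem-binding plasma protein; C3H only; chr7:105600117-105600366, minus strand): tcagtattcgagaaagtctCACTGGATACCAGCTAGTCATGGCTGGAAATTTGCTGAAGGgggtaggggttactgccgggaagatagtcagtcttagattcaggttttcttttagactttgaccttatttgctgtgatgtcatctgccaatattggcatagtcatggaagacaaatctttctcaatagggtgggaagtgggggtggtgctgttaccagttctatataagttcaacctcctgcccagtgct
Lmo7 (a LIM domain protein; both parents; chr14:101840373-101840622, plus strand): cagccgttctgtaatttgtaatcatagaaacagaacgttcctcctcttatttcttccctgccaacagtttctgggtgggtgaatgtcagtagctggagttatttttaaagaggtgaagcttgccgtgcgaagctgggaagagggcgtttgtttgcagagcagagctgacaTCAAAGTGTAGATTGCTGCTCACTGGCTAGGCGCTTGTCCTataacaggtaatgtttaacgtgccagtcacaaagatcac
Tgm4 (a transglutaminase of the prostate; B6 only; chr9:123034491-123034740, plus strand): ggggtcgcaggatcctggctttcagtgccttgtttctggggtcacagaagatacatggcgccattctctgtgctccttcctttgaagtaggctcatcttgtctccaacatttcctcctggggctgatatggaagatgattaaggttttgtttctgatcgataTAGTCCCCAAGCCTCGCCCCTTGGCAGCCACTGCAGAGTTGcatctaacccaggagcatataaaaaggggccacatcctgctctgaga
Prdm9 (C3H only; chr17:15563332-15563581, minus strand): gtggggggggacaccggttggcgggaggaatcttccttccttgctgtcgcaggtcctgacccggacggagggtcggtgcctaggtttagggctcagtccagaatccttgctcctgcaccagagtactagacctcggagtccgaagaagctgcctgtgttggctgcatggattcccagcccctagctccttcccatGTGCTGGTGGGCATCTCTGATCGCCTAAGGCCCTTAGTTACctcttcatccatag
The hotspots at Lmo7 and Tgm4 were of middling strength. The one at Hpx was stronger, at percentile 79.8 in B6fXC3Hm and 81.4 in C3HfXB6m. Hpx, Lmo7 and Tgm4 ranked 2594, 6242 and 6994 in B6fXC3Hm and 3186, 7629 and 10000 in C3HfXB6m. The one at Prdm9 ranked 135 in B6fXC3Hm and had no match in C3HfXB6m.

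The first comparison asked which parent's hotspots a hybrid uses. Hotspots found in both parental lists held the largest share of strength of the 4 origins in each hybrid, above their share by number. By number they were the largest origin in B6fXC3Hm, while B6 only was the largest in C3HfXB6m. In B6fXC3Hm, 34.0% of hotspots (33.1 to 34.8) were found in both parents, and these held 43.3% of summed strength. In C3HfXB6m they were 26.8% (26.1 to 27.5) and held 41.4%. C3H only hotspots made up 30.8% of B6fXC3Hm (30.0 to 31.6) and 31.5% of C3HfXB6m (30.8 to 32.2), with 29.7% and 29.8% of strength. B6 only hotspots made up 32.0% of B6fXC3Hm (31.2 to 32.8) and 36.7% of C3HfXB6m (36.0 to 37.4), with 24.2% and 25.7% of strength. The remaining 417 hotspots of B6fXC3Hm and 861 of C3HfXB6m were in neither parent and held 2.82% and 3.18% of strength.

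The origins were ordered alike by strength in both directions. The median percentile in B6fXC3Hm was 64.8 for both, 48.6 for C3H only, 37.6 for B6 only and 33.0 for neither. In C3HfXB6m it was 72.4 for both, 47.5 for C3H only, 37.0 for B6 only and 21.0 for neither. Of the strongest 1000 hotspots, B6fXC3Hm had 554 from both parents, 284 from C3H only, 134 from B6 only and 28 from neither. C3HfXB6m had 563, 283, 127 and 27 of the same origins. The hotspots of both parents were also the widest, with a median interval of 2068 bp in B6fXC3Hm and 2448 bp in C3HfXB6m, against 1394 to 1830 bp for the other origins in either list.

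The makeup changed along the strength scale, and mostly through an exchange of B6 only for shared hotspots. Among the weakest 10% of B6fXC3Hm, 15.1% were from both parents, 32.3% from C3H only, 46.1% from B6 only and 6.46% from neither. Among its strongest 10%, 55.4% were from both, 28.7% from C3H only, 13.2% from B6 only and 2.72% from neither. C3HfXB6m ran from 2.86% to 56.1% for both and from 50.3% to 13.8% for B6 only, while C3H only stayed between 27.8% and 32.3% at these ends. Its neither share was 14.5% among the weakest 10% and 2.28% among the strongest.

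**Figure D1:**
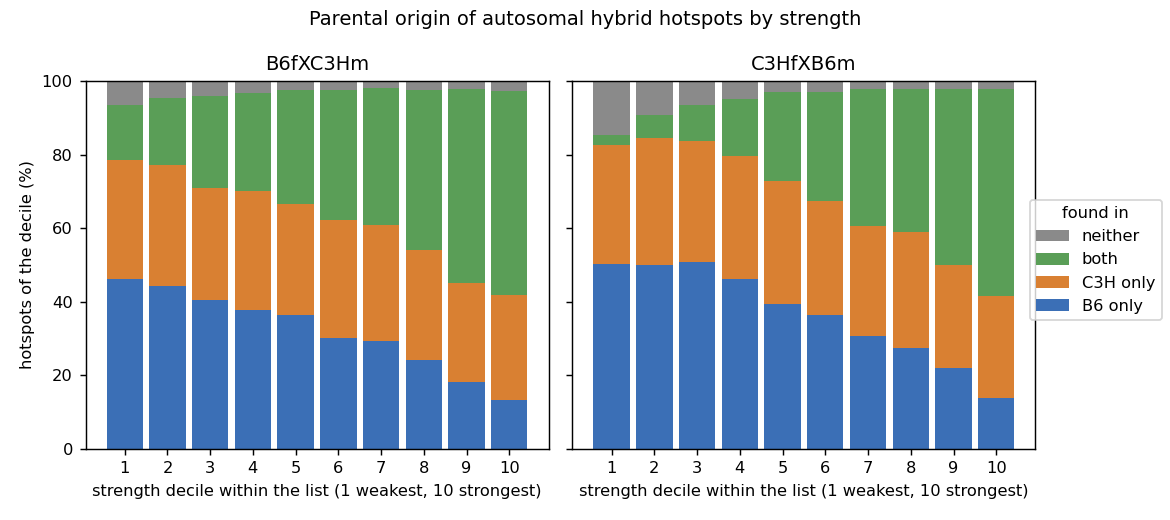
Stacked bars give the percentage of autosomal hotspots of each origin (y axis) in each strength decile of the list (x axis, 1 the weakest), for B6fXC3Hm on the left and C3HfXB6m on the right. The band found in both parents widens to 55.4% and 56.1% in the strongest decile while the B6 only band narrows to 13.2% and 13.8%.

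Between the parents, B6 supplied about as many single-parent hotspots as C3H or more by number, but less of their strength. In B6fXC3Hm the B6 part of single-parent hotspots was 50.9% by number (49.8 to 52.0) and 44.9% by strength. In C3HfXB6m it was 53.8% by number (52.9 to 54.7) and 46.3% by strength. When C3HfXB6m was reduced to its strongest 12850 hotspots, the length of the other list, its B6 part by number was 50.8% (49.7 to 51.9). With the B6 list reduced to the length of the C3H list, the B6 part by number was 46.7% in B6fXC3Hm and 48.7% in C3HfXB6m, so which parent supplied more by number depended on the length of the parental list.

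The balance differed between chromosomes, in a more similar order in the 2 directions by strength than by number. By strength the B6 part was lowest on chromosome 19, at 31.0% in B6fXC3Hm and 33.5% in C3HfXB6m. It was highest on chromosome 18 in B6fXC3Hm (50.3%) and on chromosome 17 in C3HfXB6m (52.3%). Across the 19 autosomes Spearman's rho between the directions was 0.951. The B6 part by strength was higher in C3HfXB6m on 18 of 19 autosomes, and the difference was at most 2.75 percentage points (chromosome 2). By number, rho was 0.644, and the B6 part was higher in C3HfXB6m on 19 of 19 autosomes, by up to 6.09 percentage points (chromosome 2). The C3HfXB6m list is the longer one. At equal length the B6 part by number over all autosomes was 50.9% in B6fXC3Hm and 50.8% in C3HfXB6m. Single chromosomes were not compared at equal length.

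Seen from the parents, a hotspot that both strains shared was nearly always present in the hybrids, while one private to a strain was present mainly when it was strong. B6 and C3H shared 4575 hotspots. Of these, B6fXC3Hm held 94.8% (94.2 to 95.5) and C3HfXB6m 99.3% (99.0 to 99.5), counted at the B6 centres. Of the 13555 hotspots private to B6, B6fXC3Hm held 30.5% (29.7 to 31.3) and C3HfXB6m 46.7% (45.9 to 47.6). Of the 9167 private to C3H, B6fXC3Hm held 43.5% (42.5 to 44.5) and C3HfXB6m 59.3% (58.3 to 60.3).

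Shared and private hotspots lay far apart in recovery where the parental hotspot was weak, and close together where it was strong. Among the weakest 10% of the B6 list, 75.7% of shared hotspots were in B6fXC3Hm and 96.1% in C3HfXB6m, but 2.89% and 13.0% of private ones. Among the weakest 10% of the C3H list, 75.1% of shared hotspots were in B6fXC3Hm and 97.0% in C3HfXB6m, but 3.36% and 13.6% of private ones. Among the strongest 10% of either parent, at least 98.7% of both kinds were in each hybrid.

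**Figure D2:**
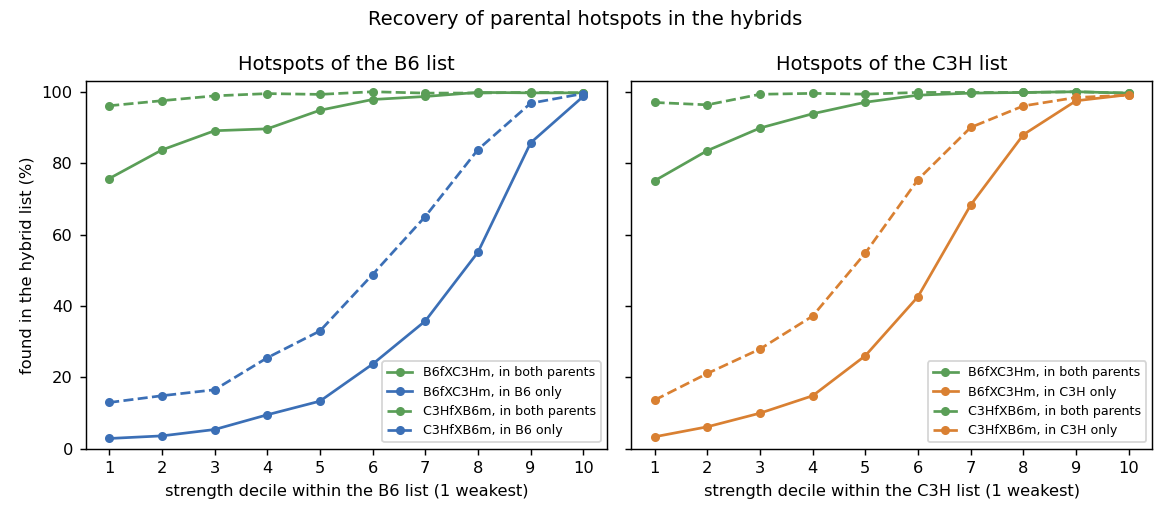
The percentage of parental hotspots found in a hybrid list (y axis) is plotted by strength decile within the B6 list (left) and the C3H list (right), for hotspots present in both parents (green) and in 1 parent only, with B6fXC3Hm as solid and C3HfXB6m as dashed lines. Shared hotspots start at 75.1% to 97.0% in the weakest decile, private ones at 2.89% to 13.6%, and all lines lie at 98.7% or above in the strongest decile.

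Single-parent hotspots held a smaller share of strength in the hybrids than in their parent, and shared ones a share closer to or above it. Over B6 only hotspots the median log2 ratio of the share of summed strength was -0.83 for B6fXC3Hm over B6 (n = 4107) and -0.99 for C3HfXB6m over B6 (n = 6284). Over C3H only hotspots it was -0.75 for B6fXC3Hm over C3H (n = 3961) and -0.96 for C3HfXB6m over C3H (n = 5387). Over hotspots of both parents it was 0.51 and 0.38 against B6, and 0.32 and 0.16 against C3H. These medians cover only hotspots that a hybrid list holds.

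Most strong parental hotspots were found in the hybrids, so they limit that selection. Choosing them by parental strength can itself lower the ratio of hybrid to parent, for shared hotspots too. A hybrid list also divides its summed strength over hotspots of the other parent, which lowers the share of a single-parent hotspot. How much either adds was not tested. Among the strongest 10% of B6, the median log2 ratio was -1.28 in B6fXC3Hm and -1.35 in C3HfXB6m for B6 only hotspots, and -0.32 and -0.34 for shared ones. Among the strongest 10% of C3H it was -0.95 and -0.94 for C3H only hotspots, and -0.30 and -0.28 for shared ones. A decrease over 2-fold was seen in 69.3% of the strong B6 only hotspots in B6fXC3Hm and 72.7% in C3HfXB6m. For the strong C3H only hotspots it was 46.7% and 46.5%. Of all hotspots matched to the parent, 20.7% were over 2-fold lower in B6fXC3Hm than in B6, and 29.4% in C3HfXB6m. Against C3H the same shares were 17.2% and 26.3%. Increases over 2-fold were seen in 18.6% and 12.4% against B6 and in 10.5% and 7.44% against C3H, in B6fXC3Hm and C3HfXB6m.

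**Figure D3:**
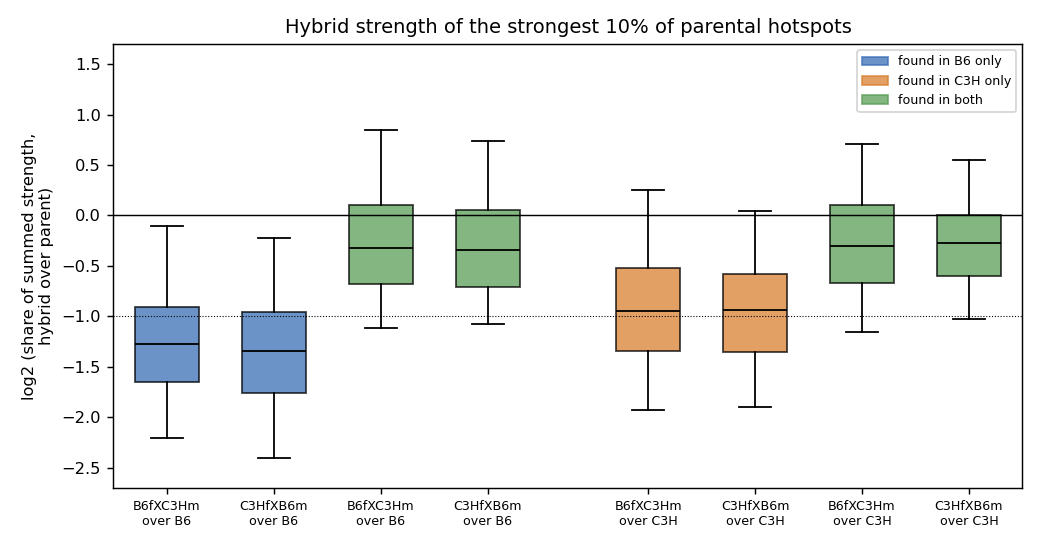
Boxes give the log2 ratio of the share of summed strength, hybrid over parent (y axis), for the strongest 10% of hotspots of B6 (left group) and C3H (right group), by origin and hybrid; the line in a box is the median, the box spans the middle 50% of hotspots and the whiskers reach from the lowest to the highest 5%. Medians lie at -1.28 and -1.35 for B6 only, -0.95 and -0.94 for C3H only and -0.34 to -0.28 for hotspots of both parents, with the dotted line at a 2-fold decrease.

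For shared hotspots the strength in the hybrids followed the mean of the parents more closely than either parent. Spearman's rho with the mean of the parental shares was 0.904 in B6fXC3Hm and 0.930 in C3HfXB6m. With B6 alone it was 0.596 and 0.626, and with C3H alone 0.713 and 0.750. Between the parents themselves, over the same places, it was 0.155 and 0.207. These values describe hotspots of single libraries, which are not independent of each other. The median log2 ratio to the parental mean was 0.30 in B6fXC3Hm and 0.19 in C3HfXB6m.

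The strongest hotspots of each origin were the same or close in rank in both directions. Rank 1 in both hybrids lay inside Phc3, a Polycomb group gene (chr3:30944485-30949162 in B6fXC3Hm), and was shared by the parents, at rank 14 in B6 and 2 in C3H. Rank 2 in both lay inside Kdm3a, a histone H3K9 demethylase gene active in spermatids (chr6:71601260-71606523). It held 1.21 per 1000 of summed strength in B6fXC3Hm and 0.853 in C3HfXB6m, against 0.0882 in B6 (rank 3213) and 0.278 in C3H (rank 396). Kdm3a was thus far stronger in rank in the hybrids than in either parent, while Phc3 was among the strongest in all 4 lists.

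Among B6 only hotspots the strongest lay 3916 bp from Nedd1, a gene of microtubule nucleation (chr10:92678452-92683205). It ranked 4 in B6fXC3Hm and 8 in C3HfXB6m, against 4 in B6. A hotspot in a gene-poor region, 979220 bp from its nearest gene Ncam2, a neural adhesion gene (chr16:82601330-82605689), ranked 29 and 28 in the hybrids but 5786 in B6. One 30874 bp from Psd3 (chr8:68240930-68244943) ranked 55 in B6fXC3Hm and 21 in C3HfXB6m, against 44 in B6. Among C3H only hotspots, one inside Klrd1, which encodes the NK cell receptor CD94 (chr6:129591918-129596745), ranked 6 and 9 in the hybrids and 935 in C3H. One inside Apba1, a synaptic adaptor gene (chr19:23875047-23879924), ranked 9 and 16, against 86 in C3H. One 16080 bp from Vps13a, a lipid transfer protein gene (chr19:16794609-16799694), ranked 11 in B6fXC3Hm and 7 in C3HfXB6m, against 5 in C3H. These origins rest on the inbred lists alone. The Klrd1, Apba1 and Vps13a places were also in crosses with a B6 but no C3H parent, B6fXPWDm and PWDfXB6m among them. The Ncam2 and Psd3 places were also in C3HfX13Rm, C3HfXCASTm, C3HfXMOLm and PWDfXC3Hm, and the Nedd1 place in C3HfX13Rm and PWDfXC3Hm. Each place was also in other crosses with its assigned parent.

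A few weak parental hotspots were strong in both hybrids. The largest such ratios were for a B6 only hotspot near Brf1, an RNA polymerase III factor gene (chr12:112950358-112952963), at rank 169 and 170 in the hybrids and 12709 in B6, and for one inside Sox5, a transcription factor gene (chr6:144463176-144464463), at rank 234 and 503 and 12703 in B6. The lower of the log2 ratios to B6 was 4.14 near Brf1 and 3.54 in Sox5. Among C3H only hotspots they were inside Tcf4, a transcription factor gene (chr18:69449992-69450811, log2 ratio 3.50), and Pik3c2g, a phosphoinositide kinase gene (chr6:139719635-139720676, log2 ratio 3.42). The other crosses did not all fall with the parent the lists assign. The place near Brf1 was in all 4 other crosses with a C3H parent and in 0 of the 8 other crosses with a B6 parent. The one in Pik3c2g was in 6 of these 8 and in 0 of the 4. The one in Sox5 was in 6 of the 8 and 0 of the 4, and the one in Tcf4 was in C3HfX13Rm alone. Few strong single-parent hotspots of the hybrids came from a weak parental hotspot. Of the strongest 1000 of B6fXC3Hm, 3 of 134 B6 only and 8 of 284 C3H only hotspots came from the weaker 50% of the parent's list, and in C3HfXB6m 4 of 127 and 6 of 283.

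The strongest parental hotspots without a match in either hybrid included places where a hybrid hotspot lay just beyond the matching distance. The strongest B6 one lay inside AW554918 (chr18:25305621-25309774, rank 23 in B6), with a hybrid centre 704 bp away, and the next near Ccdc50 (chr16:27450147-27455772, rank 227), with one 502 bp away. In C3H the strongest also lay inside AW554918 (chr18:25308887-25315492, rank 248), 3249 bp from a hybrid centre. The next, 10864 bp from the kinase gene Map3k9 (chr12:81703659-81704512, rank 321 in C3H), had its nearest hybrid hotspot 43622 bp away, and no other list of the series held it. Its interval was narrow, 854 bp against a median of 2250 bp in the C3H list. Whether this signal reflects breaks was not tested.

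The second comparison asked whether hotspots in neither parental list share anything besides their origin. They had the lowest median strength percentile, 33.0 in B6fXC3Hm and 21.0 in C3HfXB6m. In the strongest 50% of each list this order did not hold in B6fXC3Hm, where the median was 43.8 for neither and 37.0 for B6 only. With hybrid lists of equal length the median of neither was 35.3 in C3HfXB6m, against 36.5 for B6 only. Their share depended on the matching rule: it was 8.05% in B6fXC3Hm and 9.26% in C3HfXB6m with centres under 200 bp apart, and 20.4% and 12.2% with reciprocal overlap of at least 50%. The median distance to the nearest parental centre was 10860 bp in B6fXC3Hm and 18454 bp in C3HfXB6m, and 98 of 417 (23.5%) and 134 of 861 (15.6%) lay within 1000 bp of one. Within 10000 bp of one lay 48.0% and 39.1%. Of these neither-parent hotspots, 145 in B6fXC3Hm and 204 in C3HfXB6m overlapped a parental interval. Their centres lay within 1000 bp of a transcription start in 3.12% of cases in B6fXC3Hm (1.67 to 5.27) and 5.11% in C3HfXB6m (3.74 to 6.80), against 1.75% (1.53 to 1.99) and 2.04% (1.84 to 2.27) over all hotspots of these lists. They lay in the last 10000000 bp of a chromosome in 9.83% (7.15 to 13.1) and 13.1% (10.9 to 15.6), against 8.63% and 9.37% over all. For B6fXC3Hm both intervals reached the value over all hotspots.

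Some of these hotspots appeared again in other hybrids of the same strains, at a lower share than parental hotspots did in each of the 12 other crosses with a B6 or C3H parent. Of the 417 in B6fXC3Hm, 368 (88.2%) were also in C3HfXB6m, whose list was longer. In the 4 other crosses with a C3H parent, 14.1% (C3HfXCASTm) to 25.7% (PWDfXC3Hm) of the 417 were found, and in the 8 with a B6 parent 2.16% (B6fX13Rm) to 24.9% (PWDfXB6m). In the 5 crosses with neither strain the share was 0.480% to 1.92%, and in the 4 other inbred lists 0.480% to 1.68%. Parental hotspots of B6fXC3Hm were found in 20.7% to 42.1% of cases in the same 4 C3H crosses, in 12.9% to 35.5% in the 8 B6 crosses and in 0.804% to 2.74% in the 5 crosses with neither strain. Of the 417, 155 (37.2%) were in none of the 12 other crosses with a B6 or C3H parent. For C3HfXB6m, 8.48% to 15.9% of the 861 were in the other C3H crosses, 1.05% to 18.4% in the other B6 crosses and 0.348% to 1.97% in the crosses with neither strain. Parental hotspots of C3HfXB6m were found in 16.7% to 34.2%, 10.01% to 30.1% and 0.781% to 2.26% of cases in the same kinds of cross, and 518 of the 861 (60.2%) were in none of the 12 with a B6 or C3H parent. Sites of the Prdm9-/- list held 1.68% of them in B6fXC3Hm (0.678 to 3.43) and 5.46% in C3HfXB6m, against 1.07% and 1.40% of the parental hotspots of these lists.

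The strongest hotspot of this origin, inside the receptor tyrosine kinase gene Met (chr6:17526180-17530583), ranked 3 in both hybrids. It was found in all 6 crosses with a C3H parent, the hybrids among them, at ranks 33 to 225 in the other 4, but in neither inbred C3H nor B6. Of the other 8 crosses with a B6 parent, MOLfXB6m alone held it, at rank 14092. It was also in inbred MOL (rank 5734) and in PWDfXMOLm (rank 13260), but in no other list. The next, inside the contactin gene Cntn4 (chr6:106337454-106342079), ranked 62 in B6fXC3Hm and 45 in C3HfXB6m. It was found in 4 of 6 crosses with a C3H parent and in no other of the 26 lists.

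The third comparison set the directions against each other. Hotspots of the shorter list were nearly all present in the longer one, at a similar strength. Of the 12850 hotspots of B6fXC3Hm, 12718 had a partner in C3HfXB6m, at a median centre distance of 38 bp. Of these, 12632 (99.3%) had the same origin in both, and 3 changed between B6 only and C3H only. Partners lie close together and were assigned by the same rule from the same parental lists. Agreement in origin was therefore largely set by the matching. Spearman's rho of strength over pairs of the same origin was 0.960 for both, 0.938 for C3H only, 0.915 for neither and 0.902 for B6 only.

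What the directions did not share was mostly weak. Of the 132 hotspots of B6fXC3Hm without a partner, 96 overlapped an interval of C3HfXB6m. Of the 4405 in C3HfXB6m without a partner, 99.1% lay in the weaker 50% of the list. By origin, 95.4% of its hotspots from both parents had a partner, against 72.9% of C3H only, 64.6% of B6 only and 41.2% of neither. With both lists at their strongest 12850 hotspots, 91.1% were matched.

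**Figure D4:**
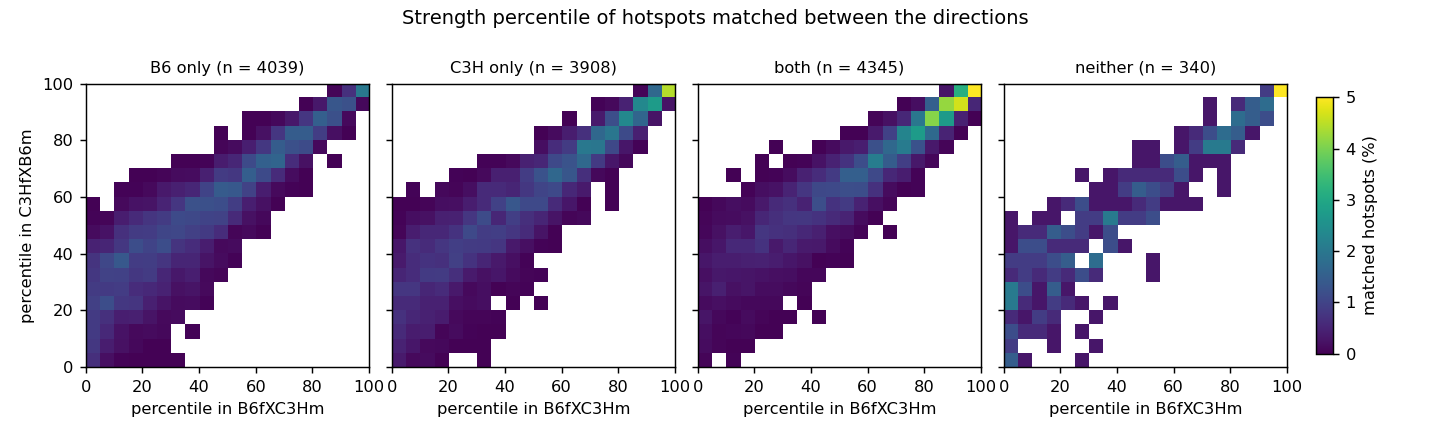
Colour gives the percentage of matched hotspots in bins of 5 percentile points, by strength percentile in B6fXC3Hm (x axis) and C3HfXB6m (y axis), for pairs with the same origin in both lists. Pairs lie along 1 band in all 4 panels, and the band from both parents is densest at the strong end.

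The share of summed strength differed over 2-fold between the directions at few places. It was higher in B6fXC3Hm at 142 of 12718 matched hotspots (1.12%) and lower at 3 (0.0236%). By origin, 68 of 4039 B6 only (1.68%) and 48 of 3908 C3H only hotspots (1.23%) were higher. So were 12 of 4345 shared (0.276%) and 9 of 340 neither hotspots (2.65%). In the same order, 1, 0, 2 and 0 were lower. Of the 86 pairs that differed in origin, 5 (5.81%) were higher and 0 lower. The median log2 ratio of B6fXC3Hm over C3HfXB6m was 0.16 over all pairs. When shares were taken over matched hotspots only, 68 places in all lay over 2-fold apart, so the count depended on the scaling.

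Among the strongest 1000 of either list, the largest ratios of B6fXC3Hm over C3HfXB6m were inside Lama2, the laminin alpha 2 gene (chr10:27569833-27572514, log2 1.08, ranks 484 and 1983), and inside Heatr1, a ribosome biogenesis gene (chr13:12423721-12426194, log2 1.07, ranks 675 and 2560). The next largest lay 271714 bp from its nearest gene, Tmem229a (chr6:25226835-25228842, log2 1.01, ranks 249 and 1091). The smallest ratio was inside Stmn1, the stathmin gene (chr4:134468185-134479414, log2 -0.70, ranks 584 and 143). The next smallest lay far from their nearest genes, 145384 bp from the semaphorin gene Sema3d (chr5:12236653-12238902, log2 -0.59) and 1062432 bp from the protocadherin gene Pcdh18 (chr3:48679172-48682545, log2 -0.58). The Stmn1 interval of B6fXC3Hm, 11230 bp, was the widest autosomal one in that list. The Stmn1 place was also in the Prdm9-/- list.

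The strongest hotspot of B6fXC3Hm without a partner lay at the promoter of Prdm9 itself (chr17:15562497-15564236, rank 135), the sequence of which is given above. It was also present in C3H (rank 132), PWD (rank 31), CAST (rank 2353), B6fXPWDm (rank 465) and C3HfXCASTm (rank 321), and in no other of the 26 lists. Thus 2 of the 6 crosses with a C3H parent held it. It was narrow for its strength: its interval was 1740 bp, against a median of 3987 bp and a minimum of 2780 bp over the 100 hotspots nearest in rank. Whether so narrow a signal reflects breaks was not tested.

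Some genes that act in meiosis held hotspots themselves. Of 54 autosomal genes of a list covering break formation, strand exchange, the chromosome axis and crossing over, 15 held a hotspot of B6fXC3Hm (27.8%) and 16 one of C3HfXB6m (29.6%), against 19.995% and 23.4% of 20665 protein-coding genes. The listed genes were longer, with a median span of 36816 bp against 17491 bp. Besides Prdm9, the strongest lay inside Majin, which anchors telomeres to the nuclear envelope in meiosis (shared by the parents, ranks 87 and 240 in B6fXC3Hm and C3HfXB6m). Then followed Mnd1, a partner of DMC1 in strand exchange (C3H only, ranks 1146 and 1479), Msh4, which stabilises recombination intermediates (shared, ranks 1993 and 1457), and Sun1, of the telomere-moving complex (shared, ranks 2020 and 2162).

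Of 4 genes at or near known mouse recombination hotspots, H2-Eb1, an MHC class II gene, held a weak B6 only hotspot (rank 12692 in B6fXC3Hm, 13689 in C3HfXB6m and 13324 in B6). Esrrg, an orphan nuclear receptor gene, held 9 hotspots in each hybrid. The strongest was C3H only (chr1:187616998-187619935), at rank 75 in B6fXC3Hm and 30 in C3HfXB6m, against 27 in C3H. No hybrid or parental hotspot had its centre within 10000 bp of Psmb9 or Hlx. In all, 53.1% of hotspots in B6fXC3Hm (52.2 to 53.9) and 51.5% in C3HfXB6m (50.8 to 52.3) lay inside a protein-coding gene, against 52.2% in B6 and 51.8% in C3H.

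The last comparison placed these hybrids among the other F1 crosses of the series, with the lists as the units. B6 by C3H hybrids had more hotspots from both parents than any other cross. The mean share was 30.4% (26.8 to 34.0, n = 2) in B6 by C3H hybrids and 2.07% ± 3.07 (SD, n = 17) in other crosses, which differed by 28.3 percentage points (exact permutation test, two-sided, p = 0.00585, the smallest that 171 regroupings allow; 0.0175 adjusted over 3 values by Benjamini-Hochberg). The parental lists of the cross shared 33.3% of the shorter list, against at most 13.0% between the parents of another cross. A hybrid hotspot can be in both parental lists only where these lists share a place. The test therefore says little about the hybrids beyond how much their parental lists share. Both hybrid lists were also scored against the same parental lists.

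Hotspots in neither parent were fewer and, relative to parental hotspots, weaker than in most other crosses. Their mean share was 4.14% (3.25 and 5.03, n = 2) in B6 by C3H hybrids and 19.7% ± 8.87 (SD, n = 17) in other crosses, with a difference of -15.6 points (exact permutation test, two-sided, p = 0.0468, adjusted 0.0468). B6fX13Rm (1.60%) and 13RfXB6m (1.799%) lay lower still. This call was not stable: it was lost when any 1 of 14 of the 17 other crosses was left out (exact permutation p up to 0.0588), and without the 5 crosses with a CAST parent the difference was -14.7 (exact permutation p = 0.110). The series text says that a sample now labelled CAST was removed because it had been wrongly labelled CASTfx13Rm. Whether this bears on the CAST list used here was not checked. The median percentile of neither-parent minus parental hotspots was -23.9 (-17.5 and -30.4, n = 2) in B6 by C3H hybrids and -2.03 ± 10.1 (SD, n = 17) in other crosses, a difference of -21.9 (exact permutation test, p = 0.0117, adjusted 0.0175). It was -20.4 without the CAST crosses (exact permutation p = 0.0220), -7.47 with intervals matched by reciprocal overlap (exact permutation p = 0.281) and -17.6 when every list was reduced to its strongest 50% (p = 0.0702 by the same exact test). Crosses share parents, so the lists are not independent and these p-values treat them as if they were.

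**Figure D5:**
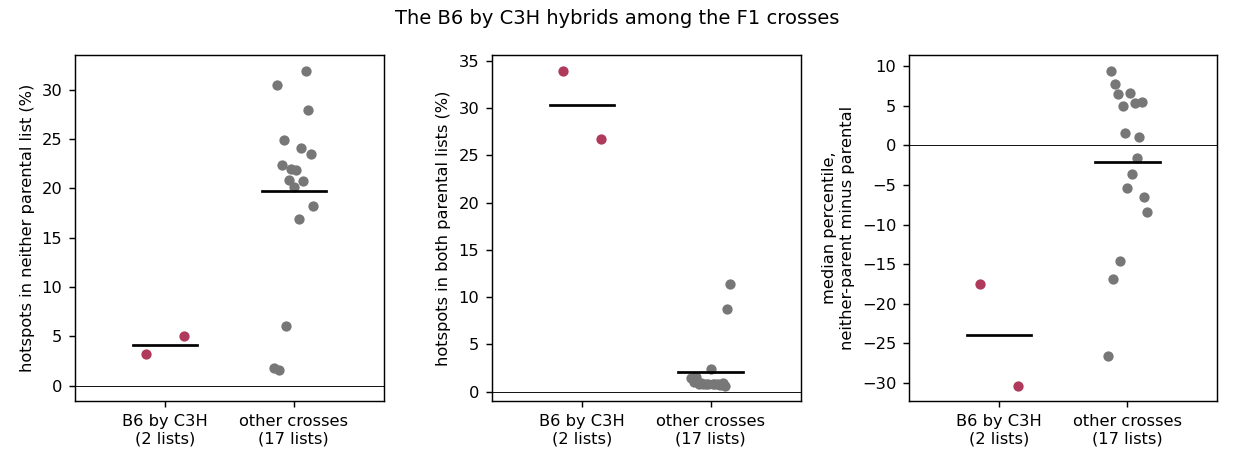
Each point is 1 F1 list, with the 2 B6 by C3H hybrids left of the 17 other crosses; the panels give the percentage of autosomal hotspots in neither parent, the percentage in both parents, and the median percentile of neither-parent minus parental hotspots, with lines at the means. The hybrids stand above every other cross in the middle panel (30.4% against 2.07% on average); in the left panel both lie within the range of the others, and in the right panel 1 of 2 does.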

How the data were processed

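DMC1 SSDS hotspot lists from testis were used for B6fXC3Hm, C3HfXB6m, B6 and C3H, and for the other 22 genotypes where named; 5 input samples carry no list. Each deposited list gives chromosome, start, end and a strength score per hotspot, as the authors called it. The submitters' processing notes name mm10, CASAVA 1.8 and MACS2 2.0.10. How hotspots were filtered, how the score was normalized and whether animals were pooled is not given in the sources used here. Coordinates are printed 1-based, taking starts as counted from 0. Centres under 400 bp apart on chromosomes 1 to 19 were a match; between the directions, partners are mutual nearest hotspots. Python 3.11.15 with numpy 2.4.6, pandas 2.3.3 and scipy 1.17.1 was used, and the classification was tested on simulated lists. RefSeq tables of GRCm38.p6, the primary assembly of mm10, gave 21900 protein-coding genes, 17492 with a promoter; 54 of 55 listed meiosis genes matched an autosomal gene.

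Named places were the strongest 2 of each origin per hybrid, the 3 largest and 3 smallest ratios between directions, the strongest 2 parental hotspots missing from both hybrids, the 2 largest hybrid-over-parent ratios per parent, those within 10000 bp of Psmb9, H2-Eb1, Hlx or Esrrg, and 5 meiosis genes. A place is named by the gene holding its centre, otherwise by the nearest gene end. The origins, lists and rules were chosen with earlier results of these data known. The alternatives changed the matching rule, list lengths, weighting, fold threshold and crosses included.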

Additional observations from a re-analysis of the deposited data

Results flagged for a closer look

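The X chromosome lay outside the autosomal comparisons and carried signal of both parental kinds. A male hybrid has 1 X chromosome, from its mother, so the X came from B6 in B6fXC3Hm and from C3H in C3HfXB6m. B6fXC3Hm had 762 hotspots on X, of which 216 were B6 only and 200 C3H only. C3HfXB6m had 1020, of which 337 were B6 only and 286 C3H only. The B6 part of single-parent X hotspots was 51.9% in B6fXC3Hm (47.0 to 56.8) and 54.1% in C3HfXB6m (50.1 to 58.1), close to 50.9% and 53.8% on the autosomes, and the intervals overlapped. Hotspots of both parents made up 43.4% of X hotspots in B6fXC3Hm (39.9 to 47.0) and 36.0% in C3HfXB6m (33.0 to 39.0), against 34.0% and 26.8% on the autosomes of the same lists. Neither-parent hotspots numbered 15 of 762 and 30 of 1020. Of the X hotspots of B6fXC3Hm, 731 (95.9%) had a partner in C3HfXB6m, with Spearman's rho of strength 0.968 over the pairs.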

How the results depend on the processing

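No paired analysis was possible because each genotype has 1 list and the replicate numbers pair nothing. The unknown read depth and the list lengths limit every share. Under the alternatives run, no difference between crosses and no percentile difference of B6 only minus C3H only changed sign. The B6 part of single-parent hotspots fell below 50% in both hybrids with parental lists of equal length, in the strongest 5000, in the strongest 50% and weighted by strength. The order of median percentiles of neither and B6 only turned in the strongest 50% of B6fXC3Hm (43.8 and 37.0). Shares over matched pairs only, equal-length lists for the agreement, and single crosses, CAST crosses or 13R crosses left out were chosen after seeing the data. What caused the changes below was not tested, and pairs of values are for B6fXC3Hm and C3HfXB6m. Counts over a fold threshold are numbers, not shares. The hotspots they are drawn from change with the matching rule and the list length.

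With centres under 200 bp apart, hotspots of both parents made up 30.6% and 24.4%, and those of neither 8.05% and 9.26%. The B6 part was 52.0% in B6fXC3Hm, recovery was 44.3% and 57.0% of B6 and 56.1% and 68.2% of C3H, matching between directions was 94.96% with rho 0.945, and 95.2% of pairs agreed in origin. With centres under 1000 bp apart, both made up 35.3% and 27.8%, neither 2.48% and 4.25%, recovery was 47.5% and 60.8% of B6 and 61.5% and 73.7% of C3H, matching 99.5% and agreement in origin 99.9%. With any overlap of intervals these values were 36.3% and 28.6%, 2.12% and 3.84%, 47.9% and 61.3%, 61.9% and 74.2%, 99.7% and 99.8%.

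With reciprocal overlap of at least 50%, both made up 30.6% and 23.9%, neither 20.4% and 12.2% and the B6 part 59.8% and 56.2%. The median percentile of B6 only minus C3H only was -14.9 and -14.4, recovery 42.5% and 56.5% of B6 and 47.1% and 64.7% of C3H, matching 97.9% and agreement in origin 84.0%. Single-parent hotspots over 2-fold below their parent numbered 1940 in B6fXC3Hm, against 3005 with centres matched. Fewer hotspots of B6fXC3Hm were single-parent under this rule, 29.3% B6 only and 19.7% C3H only against 32.0% and 30.8%. The 2 counts therefore do not compare as shares. The difference between crosses in the percentile gap was -7.47 (exact permutation p = 0.281).

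In the strongest 5000 of each list, both made up 17.5% and 17.48%, neither 8.24% and 8.0%, and the B6 part 42.2% and 42.0%. There C3H only was the largest origin by number, at 42.9% and 43.2%. Recovery was 48.84% and 48.8% of B6, and 60.7% of C3H in C3HfXB6m. Single-parent hotspots over 2-fold below their parent numbered 827 and 762, 91.5% were matched between directions with rho 0.912, 99.7% agreed in origin, and 1 pair lay over 2-fold apart. In the strongest 50%, both made up 26.1% and 20.5%, neither 4.48% and 6.67%, and the B6 part 45.9% and 49.2%. The percentile difference of B6 only minus C3H only was -9.34 in B6fXC3Hm, recovery 41.1% and 53.2% of B6 and 59.5% and 71.7% of C3H, and single-parent hotspots over 2-fold below their parent numbered 970 and 2105. The rank correlation between directions was 0.929, agreement in origin 99.7%, 12 pairs lay over 2-fold apart, and the difference between crosses in the percentile gap was -17.6 (exact permutation p = 0.0702).

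With hybrid lists of equal length, C3HfXB6m had 34.0% of both and 3.01% of neither, a B6 part of 50.8%, and recovered 46.8% of B6 and 60.8% of C3H, with 91.1% matched between directions and rho 0.940. With parental lists of equal length, both made up 29.5% and 22.7%, neither 4.24% and 8.03%, the B6 part 46.7% and 48.7%, the percentile difference -8.72 and -7.87, and recovery of B6 was 56.5% and 70.3%. Weighted by strength, both made up 43.3% and 41.4%, neither 2.82% and 3.18%, and the B6 part 44.9% and 46.3%. At 1.5-fold, 4904 single-parent hotspots of B6fXC3Hm and 1321 of 12718 pairs passed the threshold. At 3-fold, 846 and 2168 single-parent hotspots and 8 of these pairs did. The single-parent hotspots compared were 4107 B6 only and 3961 C3H only in B6fXC3Hm, and 6284 and 5387 in C3HfXB6m. With shares over matched hotspots only, 68 pairs lay over 2-fold apart.

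In the comparison of crosses, leaving out 1 list in turn put the difference between -16.7 and -14.7 for neither, 24.7 and 31.9 for both, and -28.3 and -15.4 for the percentile gap. Without either hybrid list, 1 against 17 lists cannot reach an exact permutation p below 0.0556. With each other cross left out in turn, the exact permutation p stayed at or below 0.0131 for the percentile gap and at 0.00654 for both, and the neither difference lost its call for 14 of 17. Without the CAST crosses that difference was -14.7 (exact permutation p = 0.110), and without the 13R crosses -19.9 (exact permutation p = 0.0110).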
